A study of Mus musculus with 26 samples.

Results

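The genes of DNA replication and S phase were described across 8 sorted groups of haematopoietic stem and progenitor cells, taken from bone marrow of mice in which a Gata1-EGFP transgene reports Gata1 activity. The set holds 48 genes, listed by name for their part in copying DNA, and all 48 were measured among 19938 genes on Mouse Gene 1.1 ST arrays. The rule lists the genes without a measured value, but the list was drawn up with earlier results of these data known. They were read in 5 classes. The helicase loading class holds 12 genes that load the replicative helicase or, in the case of Gmnn, restrain its loading. The others are 6 genes that switch the helicase on, 20 for polymerases, clamp and fork, 5 for nucleotide supply, and 5 for chromatin assembly, histone mRNA and uracil removal.

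All mice carried the transgene as Gata1-EGFP Tg/+ and were 8 to 15 weeks old, so reporter-negative groups carried it too. GFP+ and GFP- mark whether a cell showed EGFP under Gata1 control. The haematopoietic stem cell gate, HSC GFP- (3 arrays), was Lin- cKit+ Sca1+ CD150+ Flt3-. LMPP (4 arrays) were Lin- cKit+ Sca1+ CD150- cells with high Flt3 and no reporter. CLP (3 arrays) were Lin- B220- cells with low Sca1, low cKit, Flt3 and IL-7Ra. PreGM (3 GFP- and 3 GFP+ arrays) were Lin- cKit+ Sca1- CD41- cells without FcgRII/III, CD150 and CD105, GMP (4 GFP- and 3 GFP+ arrays) had FcgRII/III instead, and PreMegE (3 arrays) had CD150 without CD105. Reporter-positive stem cells, which the design text names, were not analysed here. The labels do not say that arrays of a group came from separate mice, so the p-values reflect only how far these arrays spread, and that spread may be technical.

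As background, a cell licenses its replication origins in G1 by loading the ring-shaped MCM2-7 helicase, and fires them in S phase once CDC45 and the GINS complex have joined the ring. Polymerases then copy both strands behind a sliding clamp, PCNA, while ribonucleotide reductase and thymidylate enzymes supply the nucleotides. Most of these genes are transcribed under E2F factors around the G1/S boundary, and long-term stem cells of adult marrow are known to be mostly quiescent.

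Values are log2 signals, and a difference of 1 is a factor of 2 in signal. A gene is called when limma's adjusted p, over all 19938 genes, is under 0.05. Array medians lay between 6.42 and 6.70, and the median of all values was 6.61. The correlation between arrays was 0.950 to 0.989 within groups and 0.923 to 0.983 between groups. Some gate genes followed the sort: Flt3 was 11.44 in LMPP, Il7r 9.94 in CLP, Fcgr3 9.52 in GMP GFP- and 9.78 in GMP GFP+. Others did not. Both PreGM groups were sorted without CD150 and CD41, but the reporter-positive one had more signal of the genes for both. The difference was 0.98 for Slamf1, encoding CD150 (SE 0.25, adjusted p = 0.0427, limma). For Itga2b, encoding CD41, it was 1.13 (SE 0.17, adjusted p = 0.00021, limma). Between gates that differed in CD150, Slamf1 did follow the sort. It was lower in LMPP than in HSC GFP- (-2.25, SE 0.24) and higher in PreMegE than in PreGM GFP+ (1.325, SE 0.25). The reason for the differences within PreGM was not tested. Gata1 was 8.48 in PreGM GFP+, 8.08 in GMP GFP+ and 8.47 in PreMegE, against 6.31 to 6.73 in the other groups. Because these are bulk samples, fewer cells in S phase and less RNA of these genes per cell cannot be told apart.

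The mean of the 48 genes, each taken relative to its own mean over the 26 arrays, gave each array 1 level. HSC GFP- was lowest, at -0.38 ± 0.13 (SD, n = 3), followed by PreMegE at -0.25 ± 0.13 (n = 3) and GMP GFP+ at -0.23 ± 0.05 (n = 3). PreGM GFP+ lay at -0.06 ± 0.05 (n = 3) and LMPP at 0.01 ± 0.14 (n = 4). PreGM GFP- followed at 0.18 ± 0.25 (n = 3), CLP at 0.21 ± 0.04 (n = 3) and GMP GFP- at 0.40 ± 0.07 (n = 4). HSC GFP- arrays lay below every array of LMPP, CLP, both PreGM groups and GMP GFP-, and overlapped GMP GFP+ and PreMegE. GMP GFP- arrays lay above every array of each other group but PreGM GFP-. Neighbours in this order mostly overlapped; CLP and GMP GFP-, and GMP GFP+ and PreGM GFP+, did not.

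**Figure D1:**
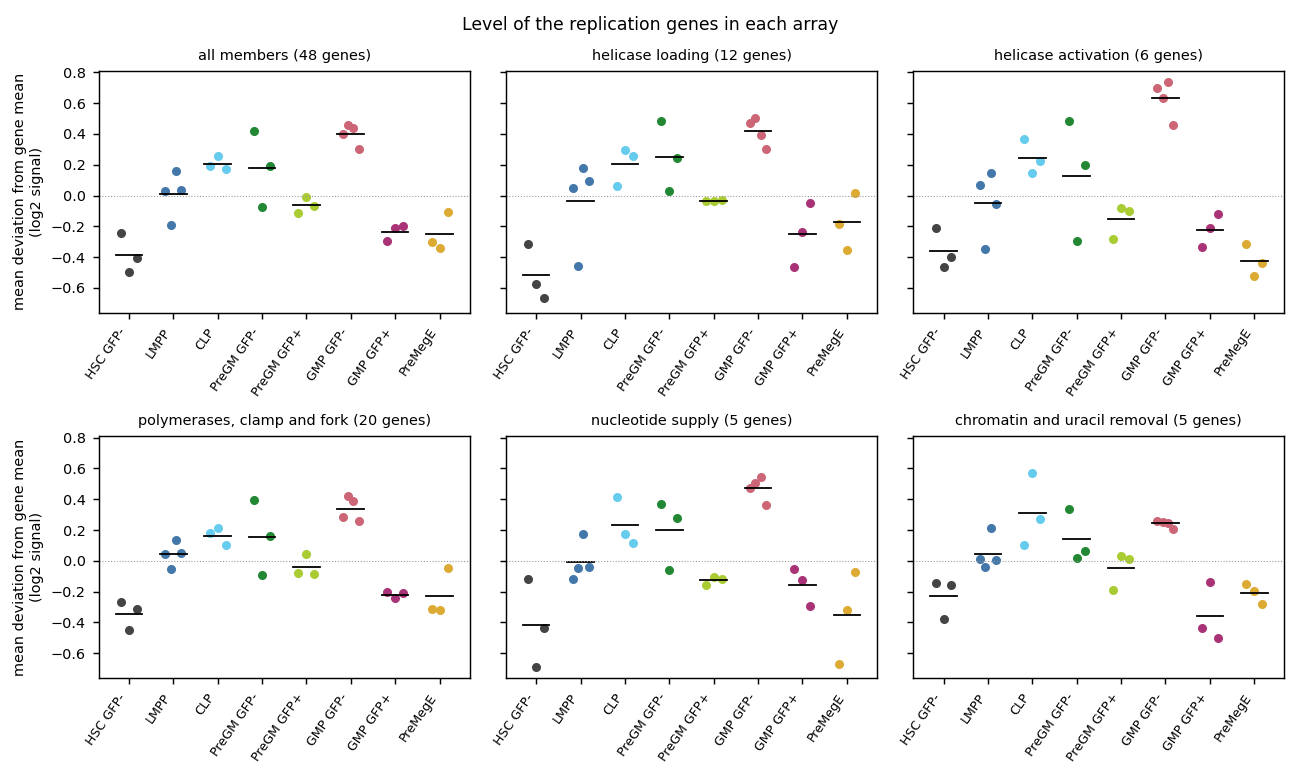
Mean log2 deviation of the 48 replication genes, overall and by class (vertical axis), for each of the 26 arrays (points) in the 8 groups (horizontal axis), with group means. The 4 GMP GFP- arrays sit between 0.30 and 0.46 over all 48 genes, and the 3 HSC GFP- arrays between -0.50 and -0.24.

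Arrays differed within groups. PreGM GFP- arrays 1, 2 and 3 had levels of 0.42, -0.07 and 0.19, about evenly spread. LMPP array 2 had -0.19 where the other LMPP arrays had 0.03 to 0.16. Without array 2 of PreGM GFP- or of LMPP, the lowest of each group, the F test below called 27 and 24 of the 48 genes in place of 23. Leaving out each of the 26 arrays in turn gave 18 to 27. The share of all genes called was not computed for these or the later refits. A change in count is therefore not shown to be particular to the set. The comparisons that rest on these low arrays are given with and without them.

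Over the 8 groups, 23 of 48 genes (47.9%) were called by limma's F test, against 15.2% of all genes. By class this was 6 of 12 helicase loading genes, 3 of 6 activation genes, 10 of 20 polymerase and fork genes, 2 of 5 nucleotide genes and 2 of 5 chromatin genes. GMP GFP- had the highest mean for 27 of the 48 genes, CLP and PreGM GFP- for 8 each, and PreMegE for 0. HSC GFP- had the lowest mean for 24, and GMP GFP+ and PreMegE for 11 each. The distance between the highest and lowest group mean had a median of 0.95, from 0.27 for Ung, a uracil glycosylase, to 1.75 for Rrm2, the regulated subunit of ribonucleotide reductase.

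The genes followed much the same order of groups. Over the 8 group means, which come from the same arrays, each gene's correlation with the mean of the other 47 had a median of 0.811, and 33 genes exceeded 0.7. The correlation was not computed for genes outside the set, so this order is not shown to be particular to the set. Fen1, the flap endonuclease that trims Okazaki fragments, was nearest at 0.974. Rfc2, a clamp loader subunit, was farthest at 0.234, and Chaf1b, a subunit of chromatin assembly factor 1, had 0.292. Rfc2 alone was highest in GMP GFP+, and Chaf1b alone in HSC GFP-.

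**Figure D2:**
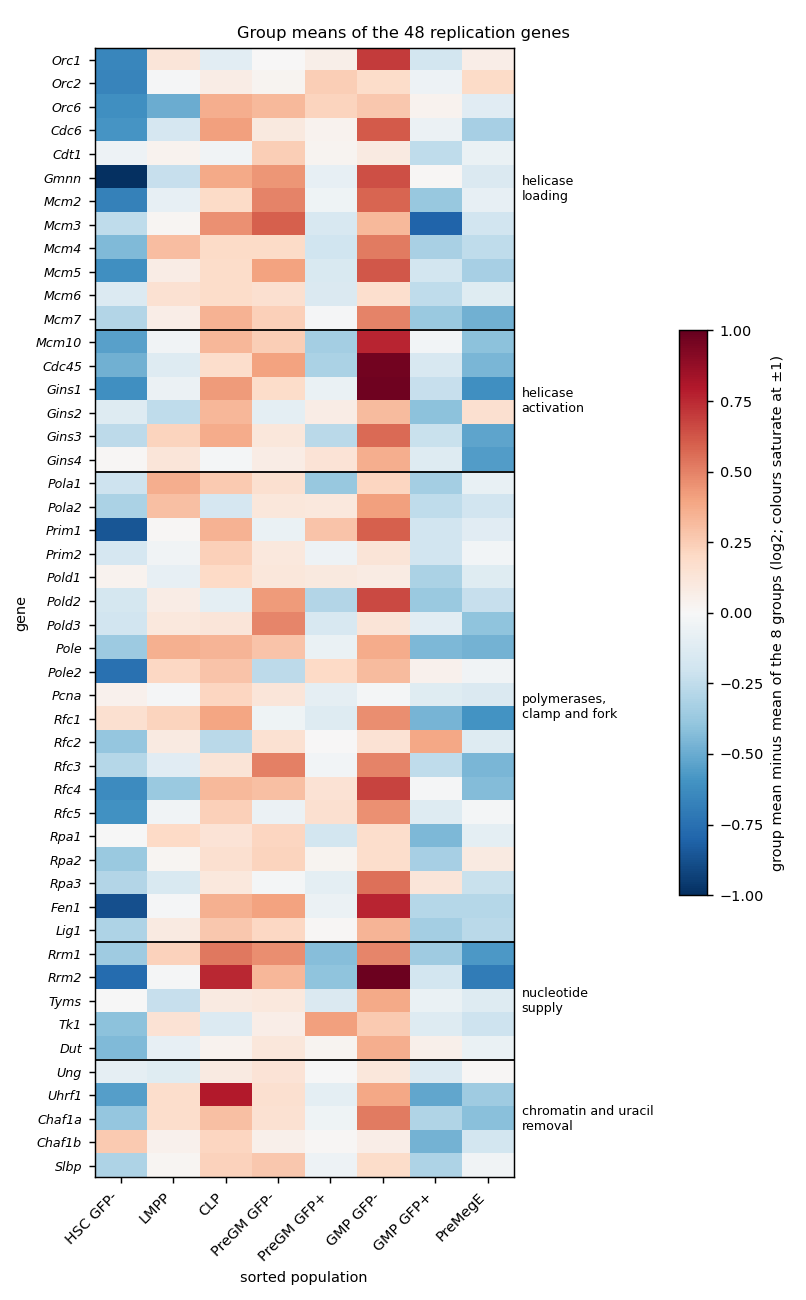
Group means of the 48 genes (rows, by class) in the 8 groups (columns), as log2 deviation from each gene's mean of group means. Rows are mostly low in HSC GFP- and high in GMP GFP-, and Rfc2 and Chaf1b depart from this order.

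The promoters of genes from 4 classes are shown. In each class the gene is the one with the largest F among those holding an E2F core. The nucleotide class had no such gene. The genes shown were Mcm5 of the helicase ring, Gins3 of the GINS complex, Rfc3 of the clamp loader and Uhrf1, which carries DNA methylation through replication. Each is the stretch of 250 bases before a RefSeq start (build GRCm38.p6), read 5′ to 3′ on the gene's strand, with the E2F core in capitals. Mcm5 lies at chr8:75109259-75109508 on the plus strand, Gins3 at chr8:95633309-95633558 on the plus strand, Rfc3 at chr5:151651209-151651458 on the minus strand and Uhrf1 at chr17:56304063-56304312 on the plus strand.
Mcm5: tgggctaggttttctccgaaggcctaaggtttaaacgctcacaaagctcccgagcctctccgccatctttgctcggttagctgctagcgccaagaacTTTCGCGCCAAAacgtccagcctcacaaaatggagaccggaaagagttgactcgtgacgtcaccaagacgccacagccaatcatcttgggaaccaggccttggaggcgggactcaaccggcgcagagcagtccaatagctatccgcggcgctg
Gins3: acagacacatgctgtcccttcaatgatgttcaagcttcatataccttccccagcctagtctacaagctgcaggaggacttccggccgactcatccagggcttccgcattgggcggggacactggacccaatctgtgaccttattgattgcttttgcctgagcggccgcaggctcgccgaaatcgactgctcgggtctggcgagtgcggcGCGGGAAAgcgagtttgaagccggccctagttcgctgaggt
Rfc3: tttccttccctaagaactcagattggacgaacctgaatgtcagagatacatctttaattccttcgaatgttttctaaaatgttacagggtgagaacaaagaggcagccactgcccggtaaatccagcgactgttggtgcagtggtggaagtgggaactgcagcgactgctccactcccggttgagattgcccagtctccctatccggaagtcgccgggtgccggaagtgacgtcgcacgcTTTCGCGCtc
Uhrf1: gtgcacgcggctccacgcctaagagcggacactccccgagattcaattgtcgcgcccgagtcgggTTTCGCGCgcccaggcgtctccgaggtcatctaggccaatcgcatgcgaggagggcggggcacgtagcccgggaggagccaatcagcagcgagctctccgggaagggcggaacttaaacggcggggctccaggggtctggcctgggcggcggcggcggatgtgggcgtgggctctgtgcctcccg

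The E2F core was searched on both strands as TTTCCCGC, as TTTGGCGC, as TTTGCCGC and as TTTCGCGC. In Mcm5, matches on opposite strands overlapped, at 153 to 146 and 149 to 142 bases before the start. The match lay 41 to 34 bases before the start in Gins3, 10 to 3 in Rfc3 and 185 to 178 in Uhrf1. Uhrf1 has 2 start windows in the table, and the other one holds 0 E2F cores; a gene was counted when any of its windows held the letters. Of the 48 genes, 40 had a promoter in the RefSeq table, and Mcm4, Gins1, Gins2, Gins4, Rfc2, Prim2, Pole and Gmnn did not. The core was found in 9 of 40 (22.5%), against 449 of 15614 measured genes with a promoter (2.88%), and in 611 of 32851 promoter windows of this length in the whole table (1.86%). GC content differed too, with a median of 60.5% against 56.6%.

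The 9 genes were Mcm5, Mcm6, Mcm7, Orc1, Cdc6, Gins3, Rfc3, Pola1 and Uhrf1, which is 5 of 10 helicase loading genes with a promoter but 0 of 5 nucleotide genes. The F test called 6 of these 9, and 20 of the 40 with a promoter. Fen1, with the largest F of the set, held no such letters in this window. The letters CCAAT, searched the same way, were in 25 of 40 (62.5%), against 38.8% of the measured genes. The cell cycle element TTTGAA was in 5 of 40 (12.5%), against 15.7%. A match is a description, not a site or a cause.

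Among the helicase loading genes, Mcm5 had the largest F (limma adjusted p = 0.000148). Its signal was 8.83, 8.46 and 8.22 in HSC GFP-, 9.30, 9.08, 9.37 and 9.01 in LMPP, and 9.19, 9.36 and 9.36 in CLP. It was 9.64, 9.44 and 9.46 in PreGM GFP-, 9.03, 8.96 and 8.90 in PreGM GFP+, 9.75, 9.61, 9.64 and 9.94 in GMP GFP-, 8.78, 8.69 and 9.34 in GMP GFP+, and 9.09, 8.40 and 8.87 in PreMegE. Every HSC GFP- array lay below every LMPP array, and every reporter-positive array below every reporter-negative array of its gate.

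Gmnn encodes geminin, which binds CDT1 and blocks relicensing of fired origins. Its signal was 7.22, 7.11 and 6.82 in HSC GFP- and 8.82, 8.71, 8.67 and 8.69 in GMP GFP-. It was 8.56, 8.71 and 8.29 in PreGM GFP-, 7.75, 8.60 and 7.62 in PreGM GFP+, and 8.05, 8.60 and 7.63 in GMP GFP+. LMPP array 2, at 7.08, fell within the stem cell range, while the other LMPP arrays had 7.99 to 8.25. The group difference was called (adjusted p = 0.00166, limma F test), with a range of group means of 1.67.

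Mcm2 and Mcm3, further subunits of the ring, were called as well (adjusted p = 0.00437 and 0.00736, limma F test). Mcm3 was 9.98 in HSC GFP- array 1 but 8.64 and 8.50 in arrays 2 and 3, so that its stem cell arrays spanned most of the range of the other groups. Mcm2 was 8.60, 7.97 and 7.87 in HSC GFP- and 9.43, 9.37, 9.48 and 9.37 in GMP GFP-. Orc1, the largest subunit of the origin recognition complex, was 5.57, 6.03 and 6.46 in HSC GFP- and 7.38, 7.43, 7.13 and 7.55 in GMP GFP-. It was the 1 gene of the set whose mean fell below the median signal of 6.61 in any group (HSC GFP-, CLP and GMP GFP+), and its differences are given as signal only.

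Mcm6 had the same role but a flatter profile, with 10.57, 10.23 and 10.28 in HSC GFP-, 10.69, 10.72, 10.68 and 10.57 in GMP GFP-, and 10.03, 10.29 and 10.43 in GMP GFP+. It was not called (adjusted p = 0.113, limma F test). The origin genes Orc2 and Orc6 and the loading factors Cdc6 and Cdt1 were not called either, with ranges of group means of 0.91, 0.97, 1.20 and 0.50.

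Among the activation genes, Mcm10, which helps the ring to open and start, had the largest F (adjusted p = 2.518e-05, limma). Its signal was 7.11, 7.58 and 7.26 in HSC GFP-, 8.17, 8.31 and 8.09 in CLP, and 8.75, 8.79, 8.67 and 8.26 in GMP GFP-. It was 8.41, 7.74 and 8.16 in PreGM GFP-, 7.44, 7.27 and 7.85 in PreGM GFP+, 7.70, 7.76 and 8.03 in GMP GFP+, and 7.39, 7.42 and 7.52 in PreMegE. GMP arrays split by reporter without overlap, and PreGM arrays overlapped through PreGM GFP- array 2.

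Cdc45, which joins the ring to form the active helicase, was 9.44, 9.64, 9.52 and 9.33 in GMP GFP-. It was 8.32, 8.24 and 8.53 in GMP GFP+ and 7.83, 8.17 and 8.14 in HSC GFP- (adjusted p = 0.000891, limma F test). It was the 1 gene of the 48 whose GMP GFP- arrays all exceeded every other array, the next being PreGM GFP- array 1 at 9.32. The share of all genes with this pattern was not computed. Gins3 was 7.93, 7.37 and 7.68 in HSC GFP-, 8.26, 8.59, 8.82 and 8.27 in GMP GFP-, and 7.45, 7.49 and 7.24 in PreMegE, where its mean was lowest (adjusted p = 0.000593, limma F test). Gins4, of the same complex, was not called (adjusted p = 0.156), with 10.05, 9.38 and 9.0 in PreMegE and 9.86, 10.10 and 10.18 in HSC GFP-.

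Among the polymerase and fork genes, Fen1 stood first, and its F was the largest of the set (adjusted p = 8.803e-07, limma). Its signal was 7.11, 6.72 and 7.13 in HSC GFP-, 7.93, 7.84, 7.85 and 7.77 in LMPP, 8.14, 8.58 and 7.93 in CLP, and 7.63, 7.24 and 7.87 in PreMegE. It was 8.43, 8.22 and 8.15 in PreGM GFP-, 7.80, 7.95 and 7.66 in PreGM GFP+, 8.56, 8.80, 8.55 and 8.60 in GMP GFP-, and 7.50, 7.66 and 7.57 in GMP GFP+. It was the 1 gene of the set whose HSC GFP- arrays all lay below every other array, a pattern whose share over all genes was not computed. Reporter-positive arrays of Fen1 lay below reporter-negative ones in both gates.

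Rfc4, a clamp loader subunit, was 8.11, 7.60 and 7.59 in HSC GFP-, 9.08, 9.14, 8.96 and 9.10 in GMP GFP-, and 8.38, 8.44 and 8.33 in GMP GFP+ (adjusted p = 0.0033, limma F test). Rfc1, the large subunit of the loader, was 9.15, 9.05 and 9.05 in HSC GFP- and 8.15, 8.22 and 8.58 in PreMegE, where every array lay lower. Its values of 8.04 in PreGM GFP- array 2 and 7.79 in GMP GFP+ array 2 lay far from the other arrays of their groups. Pcna, the clamp itself, varied little: 12.27, 12.01 and 12.20 in HSC GFP-, 12.15, 12.17, 12.29 and 11.81 in GMP GFP-, and 11.95, 12.14 and 11.91 in GMP GFP+ (adjusted p = 0.235, limma F test). Its second probe set had nearly the same values, with a correlation of 0.989 over arrays and a range of group means of 0.36 for both. Whether these probe sets share probes was not examined, so the second is not independent support.

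Among the nucleotide genes, Rrm2 had the widest range of group means of the 48 (adjusted p = 0.000718, limma F test). Its signal was 8.86, 7.30 and 8.17 in HSC GFP-, 9.61, 9.83 and 9.48 in CLP, and 9.92, 9.89, 10.01 and 9.62 in GMP GFP-. It was 9.25, 9.36 and 9.04 in PreGM GFP-, 8.29, 8.85 and 8.31 in PreGM GFP+, 8.50, 8.81 and 8.78 in GMP GFP+, and 7.28, 8.29 and 8.98 in PreMegE. The reporter split both gates without overlap, while the stem cell and PreMegE arrays were widely spread.

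Rrm1, the large subunit of the same enzyme, was called (adjusted p = 0.0369, limma F test), with 7.83, 9.50 and 9.86 in PreMegE and 9.98, 10.21 and 10.31 in CLP. Its low PreMegE mean rested on array 1. Tyms, Tk1 and Dut, enzymes of thymidine nucleotide metabolism, were not called. The probe sets of Tk1 disagreed, with a correlation of 0.305 over arrays and PreGM GFP+ means of 9.50 in the one used and 8.21 in the other.

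Among the chromatin genes, Uhrf1 had its highest mean in CLP, at 10.11, 10.57 and 10.66, and its lowest in HSC GFP-, at 9.19, 8.82 and 9.29 (adjusted p = 0.000283, limma F test). It was 10.32, 10.03, 9.98 and 9.84 in GMP GFP- and 8.82, 9.62 and 8.96 in GMP GFP+. Chaf1a, the large subunit of chromatin assembly factor 1, was 7.95, 8.22 and 8.36 in HSC GFP-, 8.96, 9.06, 8.95 and 9.37 in GMP GFP-, and 7.89, 8.57 and 8.32 in GMP GFP+ (adjusted p = 0.00758, limma F test). GMP arrays of both genes split by reporter. Chaf1b, Slbp, which binds histone mRNA stem loops, and Ung were not called.

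**Figure D3:**
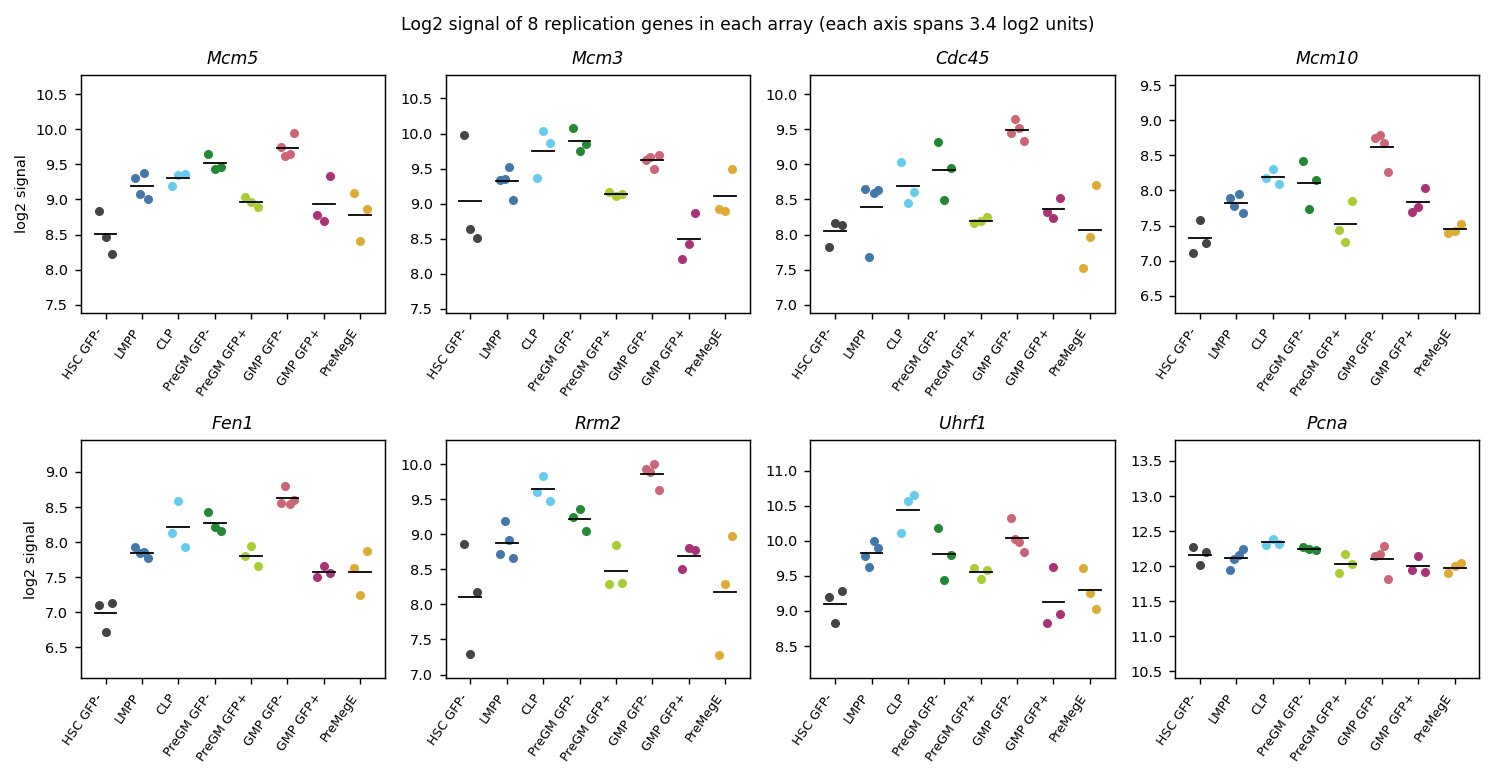
Log2 signal (vertical axis) of Mcm5, Mcm3, Cdc45, Mcm10, Fen1, Rrm2, Uhrf1 and Pcna on each array (points) in the 8 groups (horizontal axis), with group means as bars. Fen1, Mcm10, Mcm5 and Cdc45 are high in GMP GFP- and low in HSC GFP-, and Pcna is nearly level.

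Within GMP, reporter-positive cells had lower signal of replication genes than reporter-negative cells. Of the 48 genes, 19 were called lower and 0 higher, against 4.05% of all genes called lower and 3.22% higher. The median difference was -0.67, where that of all genes was 0.08, and 47 of 48 differences were negative. In 29 genes every GFP+ array lay below every GFP- array, against 9.61% of all genes. Rfc2, at 0.24, was the exception in sign and was not called.

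The calls covered every class: 6 of 12 helicase loading genes (median -0.74), 4 of 6 activation genes (-0.79), 6 of 20 polymerase and fork genes (-0.60), 1 of 5 nucleotide genes (-0.45) and 2 of 5 chromatin genes (-0.53). Signal of Fen1 fell 2.07-fold (log2 difference -1.05, SE 0.15, adjusted p = 6.306e-05, limma), and that of Cdc45 2.18-fold (-1.12, SE 0.24, adjusted p = 0.00528). Mcm3 differed by -1.12 (SE 0.25, adjusted p = 0.00662), Mcm2 by -0.96 (SE 0.23, adjusted p = 0.0113) and Uhrf1 by -0.91 (SE 0.20, adjusted p = 0.00557). Rrm2 had the largest difference among the called genes, at -1.17 (SE 0.30, adjusted p = 0.02), and Rfc1 differed by -0.93 (SE 0.24, adjusted p = 0.0215). Orc1 was called lower as well (signal difference -0.88, SE 0.24, adjusted p = 0.0252), but its GMP GFP+ mean of 6.49 lay below the median signal, so the difference in RNA may not equal this value. The other called genes were Mcm4, Mcm5, Mcm7, Mcm10, Gins2, Gins3, Rfc3, Lig1, Pola2, Rpa1 and Chaf1a, with differences of -0.87 to -0.62. Gins1 had a larger difference, -1.21, but a wider error (SE 0.39), and was not called (adjusted p = 0.0642).

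The number called depended on single arrays, with 12 without GMP GFP- array 1, 11 without GMP GFP- array 2 and 8 without GMP GFP+ array 1. Of the 8 called genes given above with their errors, Fen1, Cdc45, Mcm3 and Uhrf1 kept the call in all 13 refits. Orc1 lost it in 4 (without GMP GFP- array 1, 2 or 4 or GMP GFP+ array 1), with an adjusted p of up to 0.136. Rrm2 lost it in 3 (without GMP GFP- array 3 or GMP GFP+ array 1 or 3), with up to 0.0781. Rfc1 lost it in 2 (without GMP GFP- array 2 or GMP GFP+ array 2), with up to 0.142, and Mcm2 in 1 (without GMP GFP+ array 1), with 0.0559.

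**Figure D4:**
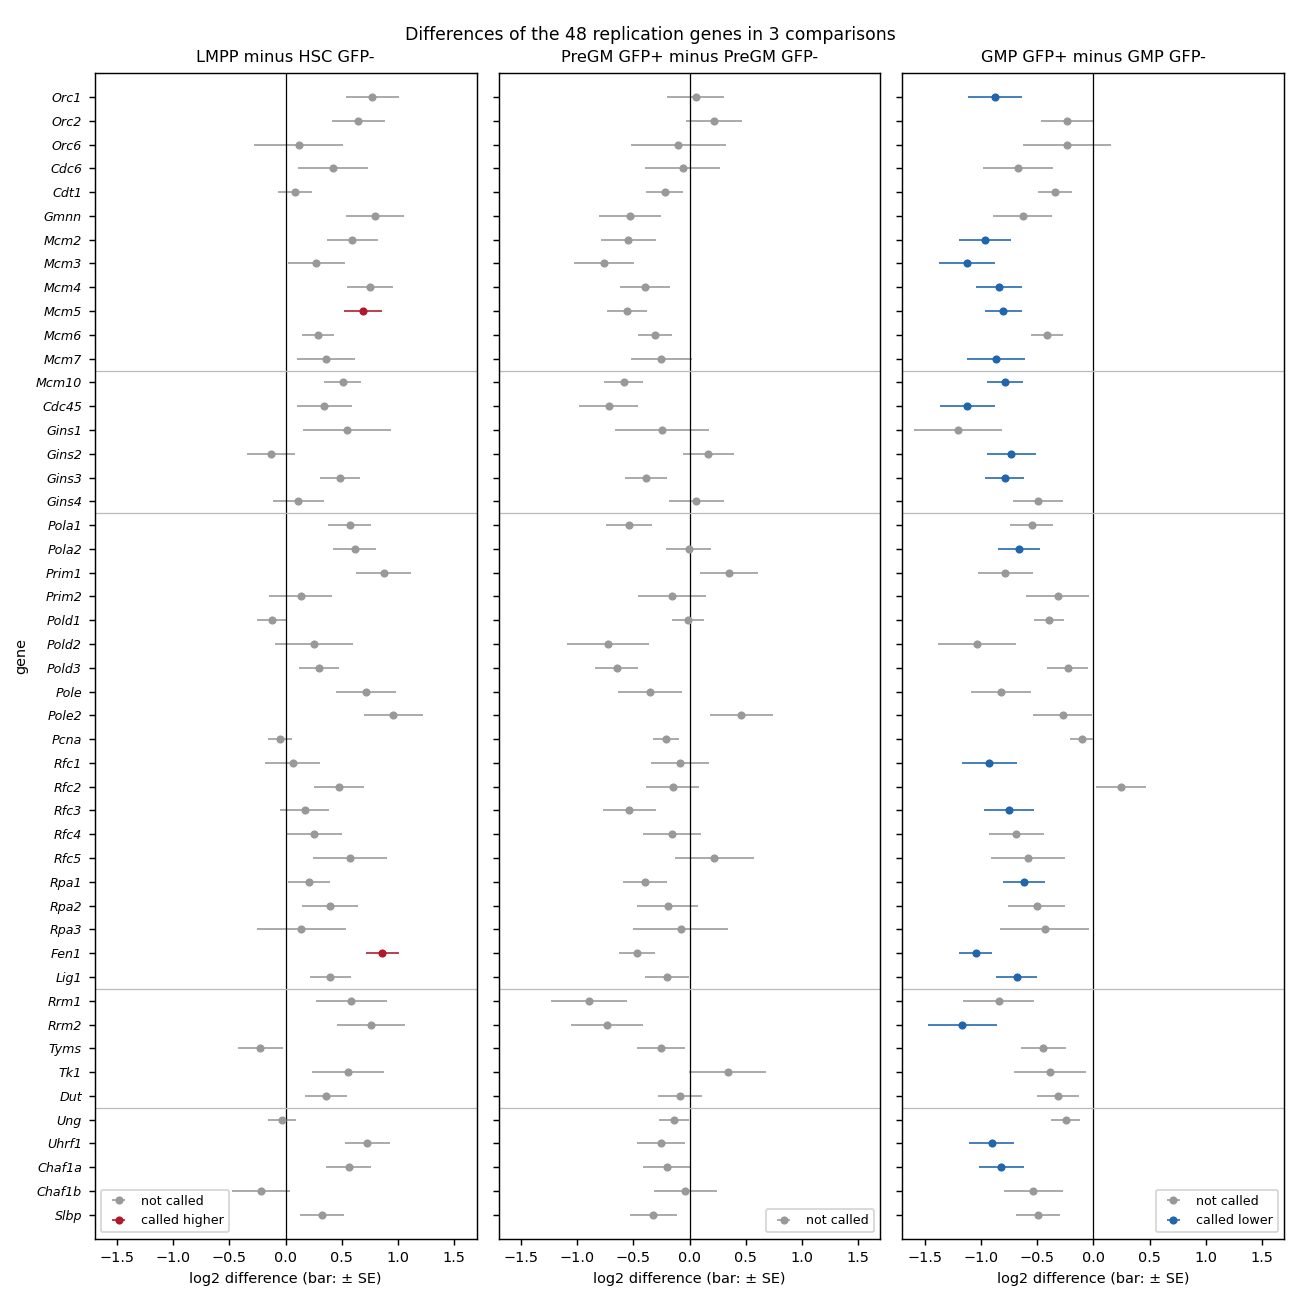
Log2 differences (horizontal axis, bars ± SE) of the 48 genes (rows, by class) in LMPP minus HSC GFP-, PreGM GFP+ minus PreGM GFP- and GMP GFP+ minus GMP GFP-, with called genes in colour. In GMP GFP+ minus GMP GFP- all but Rfc2 lie below 0, with a median of -0.67.

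Other genes of the cycle differed between the GMP groups as well. Of 33 further replication genes, 5 were called lower and 0 higher, including Cdca7 (-1.25, SE 0.16), Hells (-1.17, SE 0.19), a chromatin remodeller, and the checkpoint adaptor Clspn (-0.84, SE 0.25). Of 20 G1/S regulators, 6 were lower and 0 higher, including E2f3 (-1.22, SE 0.33), cyclin A2 gene Ccna2 (-0.88, SE 0.24) and Myc (-0.85, SE 0.17). Of 17 G2/M genes, 5 were lower and 0 higher, including Bub1b (-0.93, SE 0.27), Tpx2 (-0.91, SE 0.22) and Cdk1 (-0.86, SE 0.20). Of 14 brakes of the cycle, Ccng2, encoding cyclin G2, was higher by 1.54 (SE 0.26) and none was lower.

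Cell type markers moved with the same comparison. The 9 mast cell and basophil markers had a mean level of 2.70 to 3.05 in GMP GFP+ and -0.16 to 0.14 in GMP GFP-, and 7 of 9 were called higher. All 6 eosinophil markers were called higher, with 2.72 to 3.38 against -0.50 to -0.24. Of 10 neutrophil markers 7 were called lower, with 0.21 to 1.07 against 2.06 to 3.26, and of 7 monocyte markers 6 were lower and 1 higher, with -0.84 to -0.56 against 0.78 to 1.78. Erythroid markers had 0.54 to 0.76 against -0.84 to -0.62, with 7 of 9 called higher, among them Gata1, whose activity the reporter marks. Megakaryocyte markers had -0.18 to -0.04 against -0.73 to -0.50, with 2 of 6 called higher, and of 8 stem cell markers 1 was higher. None of 12 lymphoid and 6 T and NK markers was called. None of 9 handling and immediate early genes was called. The part of these markers in the result was not tested.

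Within PreGM, most differences between reporter-positive and reporter-negative cells were also negative, without a call. limma called 0 of 48 genes, against 1.14% of all genes called lower and 0.908% higher. The median difference was -0.21, with 40 of 48 negative, and that of all genes was 0.04. At an unadjusted p under 0.05 there were 11 genes, all lower, against 10.3% of all genes in either direction. In 12 genes every GFP+ array lay below every GFP- array, against 5.82% of all genes: Mcm2, Mcm3, Mcm5, Cdc45, Gins3, Pold2, Pold3, Rfc3, Fen1, Pcna, Rrm1 and Rrm2.

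Pold3, a subunit of the lagging strand polymerase, came nearest to a call, with a difference of -0.65 (SE 0.19, adjusted p = 0.0967, limma). It was followed by Mcm10 with -0.59 (SE 0.17, adjusted p = 0.0985) and Mcm5 with -0.55 (SE 0.18, adjusted p = 0.146). Without PreGM GFP- array 2, the lowest of its group in level, 2 genes were called by limma. They were Mcm10 (-0.77, adjusted p = 0.0199) and Pola1, the catalytic subunit of the priming polymerase (-0.81, adjusted p = 0.0258). Without PreGM GFP- array 1 or 3, or PreGM GFP+ array 1, 0 were called. Pold3 was called without PreGM GFP+ array 2 and Mcm10 without PreGM GFP+ array 3. Among the 33 further replication genes, Hells (-1.18, SE 0.20) and Cdca7 (-0.84, SE 0.17) were called lower, and of the G1/S, brake and G2/M genes none was called. Mast cell and basophil markers had a level of 0.58 to 1.01 in PreGM GFP+ and -0.31 to -0.20 in PreGM GFP-, with 4 of 9 called higher, and erythroid markers 1.21 to 1.39 against -0.66 to -0.25, with 6 of 9 higher. The erythroid list includes Gata1, whose activity the reporter marks. Megakaryocyte markers had 0.52 to 0.89 against -0.47 to -0.20, with 3 of 6 called higher. Monocyte markers had -1.27 to -1.10 against 1.27 to 1.66, with 6 of 7 called lower, and lymphoid markers -0.75 to -0.71 against 0.30 to 0.83, with 4 of 12 lower. Of 10 neutrophil markers 4 were called lower, of 6 eosinophil markers 1 was higher, and of 8 stem cell markers 1 was higher and 1 lower. The part of these markers in the result was not tested.

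The difference between the reporter effects was tested directly. limma called 0 of 48 genes, against 0.186% of all genes called lower and 0.517% higher, so no gene was shown to differ in its reporter effect between the gates. The median was -0.40, with 44 of 48 below 0, meaning a lower value in GMP. Here and in the comparisons that follow, the median of all genes is given only for LMPP minus HSC GFP-. Where it is not given, the median of the 48 genes is not shown to be particular to the set. At an unadjusted p under 0.05 there were 8 genes, all below 0, against 7.54% of all genes. Prim1, the catalytic primase subunit, had the largest value, -1.14 (SE 0.36, adjusted p = 0.253). Its mean was 10.25 in GMP GFP- and 9.47 in GMP GFP+, but 9.59 in PreGM GFP- and 9.94 in PreGM GFP+.

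Between gates, the step from PreGM to GMP had a positive median in reporter-negative cells and a negative one in reporter-positive cells, and neither step gave a call. In reporter-negative cells the median was 0.23 with 36 of 48 positive. limma called 0 genes, also without PreGM GFP- array 2, against 0.918% of all genes called higher and 0.471% lower, and 9 genes, all higher, had an unadjusted p under 0.05, against 8.18% of all genes. In 7 genes GMP GFP- arrays all exceeded the PreGM GFP- arrays, against 3.86% of all genes, namely Orc1, Gins2, Gins3, Cdc45, Fen1, Prim1 and Rrm2. In 2 genes, Mcm3 and Pold3, all lay below, a share near the 3.73% of all genes.

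In reporter-positive cells the median was -0.21 with 36 of 48 negative. limma called 0 genes, against 0.792% of all genes called higher and 0.226% lower, and 3 genes, all lower, had an unadjusted p under 0.05, against 7.45% of all genes. Pold1, the catalytic subunit of the lagging strand polymerase, had the smallest adjusted p, 0.338, with a difference of -0.41 (SE 0.14). Of the 20 G1/S regulators only Myc was called, lower by -0.81 (SE 0.18). The reporter-negative and reporter-positive PreGM and GMP arrays enter both the reporter and the gate comparisons.

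Leaving the stem cell gate, LMPP had higher signal than HSC GFP-. limma called 2 of 48 genes higher and 0 lower, against 1.03% of all genes called higher and 1.28% lower. The median was 0.40, with 42 of 48 positive, and that of all genes was -0.04. In 14 genes every LMPP array exceeded every stem cell array, against 4.52% of all genes, and in 0 every one lay below, against 7.44%. The called genes were Fen1, with 0.86 (SE 0.15, adjusted p = 0.00147, limma) or 1.82-fold, and Mcm5, with 0.69 (SE 0.17, adjusted p = 0.0261) or 1.61-fold.

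Uhrf1 (0.73, adjusted p = 0.0546), the polymerase epsilon subunit Pole2 (0.96, adjusted p = 0.0577) and Mcm4 (0.75, adjusted p = 0.0595) lay just past the threshold. Without LMPP array 2, the array with a low level, 4 genes were called, with Gmnn (1.05, adjusted p = 0.0164) and Prim1 (1.01, adjusted p = 0.0344) added. Without LMPP array 3 only Fen1 was called. Mcm5 was not called in 5 of 13 refits (without LMPP array 1 or 3 or HSC GFP- array 2 or 3, and with the compared groups alone), with an adjusted p of up to 0.171, and Fen1 was called in all 13.

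Other genes of the cycle were called in this step. Of 17 G2/M genes, 6 were higher and 0 lower, including Bub1b (1.42, SE 0.27), Cenpe (1.40, SE 0.31) and Kif11 (1.36, SE 0.36), genes of spindle checkpoint and spindle motors. Ticrr (0.94, SE 0.24), which helps to fire origins, and Tipin (0.89, SE 0.19), of the fork protection complex, were the 2 called of 33 further replication genes. Myc was higher by 0.65 (SE 0.17). Cdkn1c, encoding the inhibitor p57, was lower by -0.78 (SE 0.17, adjusted p = 0.012, limma), as a difference of signal, since its LMPP mean of 6.56 lay below the median signal. The stem cell markers, 6 of 8 called lower, had a level of 1.14 to 1.43 in HSC GFP- and 0.25 to 0.36 in LMPP. Lymphoid markers had -0.77 to -0.44 in HSC GFP- and 0.40 to 0.87 in LMPP, with 3 of 12 called higher, and megakaryocyte markers 0.21 to 0.48 and -0.54 to -0.43, with 3 of 6 lower. The called stem cell and lymphoid markers include Slamf1, encoding CD150, and Flt3, on which these cells were sorted, so those calls follow from the gates. Of 10 neutrophil markers 2 were called higher, of 7 monocyte markers 1, and of 9 erythroid markers 1 was higher and 1 lower. The part of these markers in the result was not tested.

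PreMegE arrays gave a small positive median over HSC GFP-. limma called 1 of 48 genes higher and 0 lower, against 0.988% of all genes called higher and 2.19% lower, a share near the background. The median was 0.11, with 31 of 48 positive. The gene was Fen1 (0.59, SE 0.16, adjusted p = 0.0398, limma), which was not called in 7 of 12 refits, among them those without PreMegE array 1 or 3 or HSC GFP- array 1 or 2. Without HSC GFP- array 2, Prim1 was called in its place (1.02, adjusted p = 0.0421). Orc2 (0.85, adjusted p = 0.0717), Gmnn (0.88, adjusted p = 0.0955) and Pole2 (0.71, adjusted p = 0.235) also had all PreMegE arrays above all stem cell arrays; with Fen1 these are 4 of 48 genes, where 8.94% of all genes do so. Rfc1 was the 1 gene with all PreMegE arrays below (-0.76, SE 0.26, adjusted p = 0.142), as were 7.97% of all genes. Neither count stands above the background.

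By contrast, 4 of 17 G2/M genes were called higher and 0 lower, including Plk1 (1.50, SE 0.41) and Ccnb2 (1.29, SE 0.27). Among 20 G1/S regulators E2f8 (1.93, SE 0.26), Cdk6 (1.40, SE 0.18) and Ccna2 (1.11, SE 0.25) were higher, and of 33 further replication genes 0 were called. Cdkn1c was called lower, with a signal difference of -0.77 (SE 0.18), and its PreMegE mean of 6.56 also lay below the median signal. Neutrophil markers had a level of 0.18 to 0.66 in PreMegE and -2.05 to -1.60 in HSC GFP-, with 6 of 10 called higher and 1 lower. Erythroid markers had 1.13 to 1.21 against -0.46 to -0.40, with 6 of 9 called higher, and megakaryocyte markers 0.97 to 1.37 against 0.21 to 0.48, with 2 of 6 higher. Stem cell markers had 0.01 to 0.38 against 1.14 to 1.43, with 4 of 8 called lower. Of 12 lymphoid markers 1 was called lower, and of 6 T and NK markers 1 was higher. The part of these markers in the result was not tested.

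Between PreMegE and PreGM GFP+, both with high Gata1 signal, no replication gene was called. limma called 0 of 48 genes, against 0.015% of all genes called higher and 0.0502% lower. The median was -0.16 with 37 of 48 negative, and 2 genes, both lower, had an unadjusted p under 0.05, against 3.83% of all genes. Gins4 had the smallest adjusted p, 0.994, with a difference of -0.70 (SE 0.24).

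From LMPP, the steps to CLP and to PreGM GFP- both gave positive medians and no call. CLP differed from LMPP by a median of 0.21 with 37 of 48 positive. limma called 0 genes, also without LMPP array 2, against 0.828% of all genes called higher and 0.747% lower, and 11 genes, 10 higher and 1 lower, had an unadjusted p under 0.05, against 10.1% of all genes. Uhrf1 came nearest (0.62, SE 0.20, adjusted p = 0.163). Every CLP array exceeded every LMPP array in 7 genes, against 6.7% of all genes: Cdc6, Mcm10, Gins2, Pcna, Fen1, Rrm2 and Uhrf1. All 17 G2/M genes had positive differences, with Ube2c (0.97, SE 0.22) and Aurkb (0.96, SE 0.22) called. Of the G1/S regulators Ccna2 (1.07, SE 0.24), Ccnd3 (0.96, SE 0.12) and E2f7 (0.60, SE 0.14) were higher and Myc lower (-0.92, SE 0.17). Of the 14 brakes of the cycle only Rbl2, a pocket protein that holds E2F targets down, was called, lower by -0.73 (SE 0.15). Most other brakes had positive differences without a call, among them Btg1 (0.79, SE 0.24). The level of the brakes was -0.18 to 0.32 in CLP and -0.29 to 0.06 in LMPP.

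PreGM GFP- differed from LMPP by a median of 0.17 with 34 of 48 positive. limma called 0 genes, also without PreGM GFP- array 2 or LMPP array 2, against 0.396% of all genes called higher and 0.476% lower, and 8 genes, all higher, had an unadjusted p under 0.05, against 8.85% of all genes. Fen1 (0.42, SE 0.15, adjusted p = 0.284) was among 7 genes with all PreGM GFP- arrays above all LMPP arrays, against 4.29% of all genes, beside Mcm3, Mcm5, Gmnn, Pold3, Rfc3 and Rfc4. Cdca7 was the 1 further replication gene called (0.74, SE 0.16). Several lists of cell type markers differed in these steps. Monocyte markers had a level of 0.65 to 2.21 in CLP and 1.27 to 1.66 in PreGM GFP-, against -0.63 to -0.33 in LMPP. Lymphoid markers had 1.67 to 2.63 in CLP, 0.30 to 0.83 in PreGM GFP- and 0.40 to 0.87 in LMPP. Neutrophil markers had -1.44 to -0.61 in CLP, 0.22 to 0.74 in PreGM GFP- and -1.56 to -0.68 in LMPP. The part of these markers in the result was not tested. The LMPP arrays enter both steps and the comparison with stem cells.

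The G2/M genes set the groups in a partly different order. Their level was -1.04 to -0.71 in HSC GFP-, below every array of each other group, and 0.48 to 0.73 in CLP and 0.41 to 0.61 in GMP GFP-. PreMegE spread from -0.65 to 0.19 and GMP GFP+ from -0.35 to -0.07. The F test called 16 of 17 G2/M genes, 12 of 20 G1/S regulators, 11 of 33 further replication genes and 5 of 14 brakes, against 23 of the 48 replication genes.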

How the data were processed

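Log2 signals, as deposited by the authors, were used for every array and probe set, and the submitters' processing notes list the tools RMA and oligo, with no version or steps; the base of the logarithm is not given in the sources used here, and base 2 was taken from the range of the values. Of 35556 deposited probe sets, 21789 named 1 gene, 1621 several and 12146 none, and only the first were used, which left 19938 genes; 21698 matched an Entrez record and 0 symbols changed. For genes with several probe sets (999, among them Pcna, Rpa3, Tk1 and Slbp) the one with the highest mean over the 26 arrays was taken. Probes shared with related genes were not examined.

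One limma model (limma 3.58.1, R 4.3.3) with 1 coefficient per group was fitted to all genes and 26 arrays, with Benjamini-Hochberg adjustment over all genes and a threshold of 0.05. No batch is given in the labels. The number of arrays limits the precision.

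The 48 genes, their classes and the other lists were chosen with earlier results of these data known. Values per array are given for the genes with the largest F of each class, the uncalled genes with the highest signal and the genes called with the largest differences; some near the threshold, and those called when an array was left out, were chosen after their values were seen. Alternatives were another probe set rule, a filter on dim genes, centred arrays, array weights, the compared groups alone, the replicate number as a block, and each array left out. Arrays with the same replicate number did not deviate together (median correlation 0.031 over 85 pairs), so the numbers were not taken to pair samples.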

Additional observations from a re-analysis of the deposited data

Results flagged for a closer look

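Cdc45 in LMPP array 2 had a signal of 7.69, where the other 3 LMPP arrays had 8.59 to 8.64. The gap to its nearest neighbour was 0.94 of the range of the group. It was the 1 array flagged among 50 sets of 4 arrays looked at. Chance gives a gap past the flagging cut in about 1 of 20 sets, and this gap lay above the cut. How often chance gives a gap as wide as 0.94 was not computed. The sets reuse the LMPP and GMP GFP- arrays, so they are not independent.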

How the results depend on the processing

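In the refits of called genes named with values, 120 of 142 kept the call, 22 lost it and 0 changed direction. With arrays weighted by precision (a fit that stopped before full convergence), the genes called were 30 for GMP GFP+ minus GMP GFP-, 9 for LMPP minus HSC GFP-, 4 for PreMegE minus HSC GFP- (3 higher, 1 lower) and 1 for GMP GFP+ minus PreGM GFP+. PreMegE minus HSC GFP- gave 0 with arrays centred on their medians, with the replicate block and with the compared groups alone. With single arrays left out, counts ranged from 8 to 17 for the GMP reporter, 1 to 4 for LMPP minus HSC GFP-, 0 to 1 for PreMegE minus HSC GFP-, 0 to 2 for the PreGM reporter and 18 to 27 for the F test, and stayed at 0 in the other comparisons. The replicate block gave 17 for the GMP reporter, 22 for the F test and 2 for LMPP minus HSC GFP-, and changed no other count but the 1 named; the numbers are shared labels only. The share of all genes called in these refits was not computed, so the changes are not shown to be particular to the set. The causes of these changes were not tested.

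Groups had 3 or 4 arrays, and this number limits the precision. Signals under the median of all values were not shown to exceed background. Levels of different genes were not compared.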
